A study of Mus musculus with 39 samples.

Results

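Epiblasts that lack Stat3 were compared at E7.5 with WT epiblasts collected 1 day earlier, at E6.5. The comparison took every library of these 2 groups: 3 of *Stat3* null at E7.5 and 9 of WT at E6.5, so 12 of the 39 libraries of the series. Each library held the RNA of 1 mouse epiblast, dissected by hand away from its extraembryonic tissues. All embryos came from crosses of heterozygous parents on a CD1 background, and each was genotyped by PCR on its own extraembryonic tissue. In the null allele a neomycin resistance cassette stands where exons 20 to 22 of *Stat3* were. The deletion is carried by the whole embryo, so Stat3 was also lost in the extraembryonic tissue around the epiblast, and effects of the loss there cannot be told apart from effects in the epiblast itself. No treatment was given. Whether a null embryo at E7.5 differs from a WT embryo of the day before in more than its age is the question that this comparison addresses.

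STAT3 is a transcription factor that is phosphorylated by JAK kinases when cytokines of the LIF and interleukin 6 family bind receptors that contain gp130, and it maintains naive pluripotency in mouse embryonic stem cells. The epiblast is the tissue from which the embryo proper is formed. Around E6.5 it is an epithelium in primed pluripotency that begins to form the primitive streak, and by E7.5 gastrulation has given rise to mesoderm, definitive endoderm and, at the front end of the streak, the node, whose cells bear motile cilia. Over the same period genes of the germline programme, which are read at low level in the early epiblast, are silenced with DNA methylation at their promoters.

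*Stat3* (ENSMUSG00000004040.16, chr11:100885098-100939540 in GRCm38, minus strand) was read at 1.5, 1.29 and 1.22 CPM (read counts scaled by the effective library size) in the 3 null epiblasts. In the 9 E6.5 WT epiblasts it ranged from 5.66 to 28.9 CPM with a median of 12.5, so every null library lay below every WT library. Reads on the exons that the allele keeps are still counted on the gene. The log2 fold change was -3.32 ± 0.499 (SE; edgeR quasi-likelihood test, adjusted p = 0.0119), and the difference of the mean log2 CPM was -3.11 (p = 0.00455 by an exact permutation test, two-sided, the smallest p that its 220 splits allow). With 1 null library left out the adjusted p lay between 0.0795 and 0.118. In the 9 E7.5 WT epiblasts *Stat3* ranged from 4.63 to 24.3 CPM with a median of 11.4.

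Total counts were 37143484 to 41655234 in the null libraries and 28837665 to 70922482 in the E6.5 WT libraries. Between 17790 and 18267 genes had 10 or more counts in a null library, and between 16363 and 18288 in an E6.5 WT library. No pair of libraries was alike enough to be a duplicate (highest correlation of log2 CPM across genes 0.949). Markers of the epiblast were present throughout, with *Pou5f1* at 588 to 729 CPM in the null and 424 to 686 CPM in the E6.5 WT libraries. Markers of the visceral endoderm, the layer that encloses the epiblast, were uneven: their 16 genes summed to 59.3 to 325 CPM in the null libraries, to 85.9 to 215 CPM in E6.5 WT 5 to 9, and to 462 to 6234 CPM in E6.5 WT 1 to 4. The 12 extraembryonic ectoderm genes summed to 9.16 to 24.4 CPM in the null and 9.70 to 120 CPM in the E6.5 WT libraries, and the 4 parietal endoderm genes to 0.188 to 4.89 and 0.208 to 109 CPM. *Hnf4a*, a defining factor of the visceral endoderm, was read at 7.23, 0 and 4.01 CPM in the null libraries and at 1.5 to 104 CPM in E6.5 WT. In these whole epiblasts, fewer cells of a type and less RNA per cell cannot be told apart. The 4 Y chromosome genes listed summed to 0, 0 and 148 CPM in the null libraries and to 0.229 to 189 CPM in E6.5 WT. Of the null libraries only null 3 thus held reads of these genes. The part of embryo sex was not tested beyond a covariate of these genes.

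Of 19749 genes tested, 32 were called (0.162%), 16 with higher reads in the null epiblasts (0.081%) and 16 with lower (0.081%). Called genes changed by more than 1 on the log2 scale, in either direction, with an adjusted p below 0.05. For all 32 the 3 null libraries lay on 1 side of the 9 E6.5 WT libraries. Of all genes tested, the null libraries lay above every WT library for 2.44% and below every WT library for 1.96%. The median log2 fold change over all genes tested was -0.01. DESeq2 called 227 genes, of which 51 were higher, and voom with quality weights called 315, of which 237 were higher. Without E7.5 null 3 the edgeR count was 4, without null 1 it was 6, without null 2 it was 9 and without E6.5 WT 3 it was 88.

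**Figure D1:**
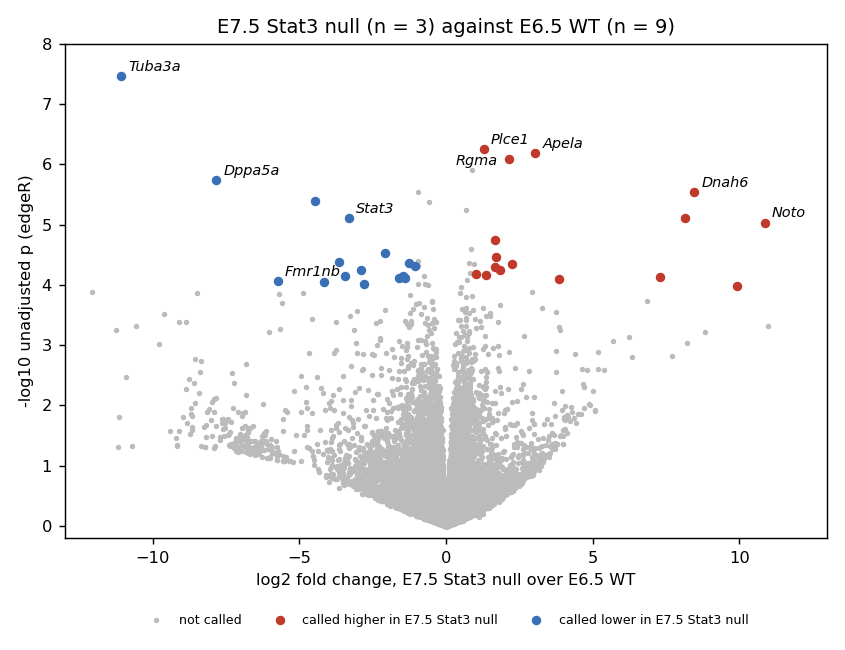
Each point is 1 of 19749 genes, with the log2 fold change of E7.5 Stat3 null over E6.5 WT on the x axis and -log10 of the unadjusted edgeR p on the y axis. The 16 genes called higher (red) and the 16 called lower (blue) have small p among genes of like fold change, with Tuba3a at the top left and Noto at the right. Fitted fold changes of genes with no counts in a group, as these, depend on the prior count of the fit.

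Genes of the node and of motile cilia made up the clearest group among the 16 higher calls. *Noto*, the homeobox factor of the node and the notochord, had no count in any of the 9 E6.5 WT libraries and stood at 6.53, 2.44 and 7.46 CPM in the null libraries, which is at least 70.3-fold higher (adjusted p = 0.0130). In E7.5 WT it ranged from 0 to 10.9 CPM with a median of 6.15, so all 3 null epiblasts were within the range of their own stage. *Dnah6*, a heavy chain of the axonemal dynein motor, stood at 2.34, 0.859 and 5.90 CPM in the null libraries and at no more than 0.0596 CPM in E6.5 WT, at least 39.0-fold higher, and at least 20.6-fold without null 3 (adjusted p = 0.00714).

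*Fhad1*, which encodes a protein with a forkhead-associated domain, was at 2.0, 0.591 and 4.90 CPM against at most 0.0596 CPM, at least 32.0-fold higher, and at least 16.6-fold without null 3 (adjusted p = 0.0119). *Cfap206*, a cilia and flagella associated gene, was at 3.12, 0.671 and 4.68 CPM against no count in E6.5 WT, at least 36.2-fold higher (adjusted p = 0.0443). *Mapk15*, an atypical MAP kinase linked to the formation of cilia, was at 2.87, 0.698 and 2.26 CPM against at most 0.101 CPM, at least 24.9-fold higher (adjusted p = 0.0399). In each of these 5 genes null 2 was the lowest of the 3 null libraries, and every E6.5 WT library held 3 counts or fewer. *Pkd1l1*, a polycystin that works with *Pkd2* in the cilia of the node in setting the left-right axis, was at 13.9, 14.2 and 19.3 CPM against 0 to 2.30 CPM (median 0.978). Its log2 fold change was 3.84 ± 0.710 (SE, adjusted p = 0.0399) and E7.5 WT ranged from 3.73 to 29.0 CPM.

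A list of 32 genes of the node and of motile cilia was then read in full. It was drawn up after these values were seen, so its count describes the group and is not support for it. Of its members 28 were tested, 6 were called higher (those named above) and none was called lower. At an unadjusted p under 0.05, 16 were higher and 1 was lower, against 3.92% and 4.95% of all genes tested. DESeq2 called 8 higher and voom 13. The median log2 fold change of the tested members was 1.56.

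*Foxj1*, the factor that directs the programme of motile cilia, stood at 42.0, 21.7 and 41.5 CPM in the null libraries and at 0 to 12.4 CPM (median 1.63) in E6.5 WT. The groups did not overlap, but the adjusted p was 0.191. *Rfx3* and *Mns1*, a regulatory factor of ciliary genes and a gene needed for motile cilia, passed the adjusted p (0.0364 and 0.0398) with log2 fold changes of 0.79 ± 0.138 and 0.81 ± 0.148 (SE), below the fold that makes a call. *Dand5*, a secreted inhibitor of Nodal made beside the node, went the other way at 0.15, 0.161 and 0 CPM against 0 to 1.48 CPM (adjusted p = 0.552). At E7.5 the null epiblasts were lower for it than E7.5 WT, where it was at 0.296 to 5.49 CPM (log2 fold change -4.73, adjusted p = 0.0455, in a comparison that called 1.17% of genes and shares the null libraries). The summed level of the list was 435 to 494 CPM in the null libraries, 201 to 254 CPM in E6.5 WT and 305 to 583 CPM in E7.5 WT.

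**Figure D2:**
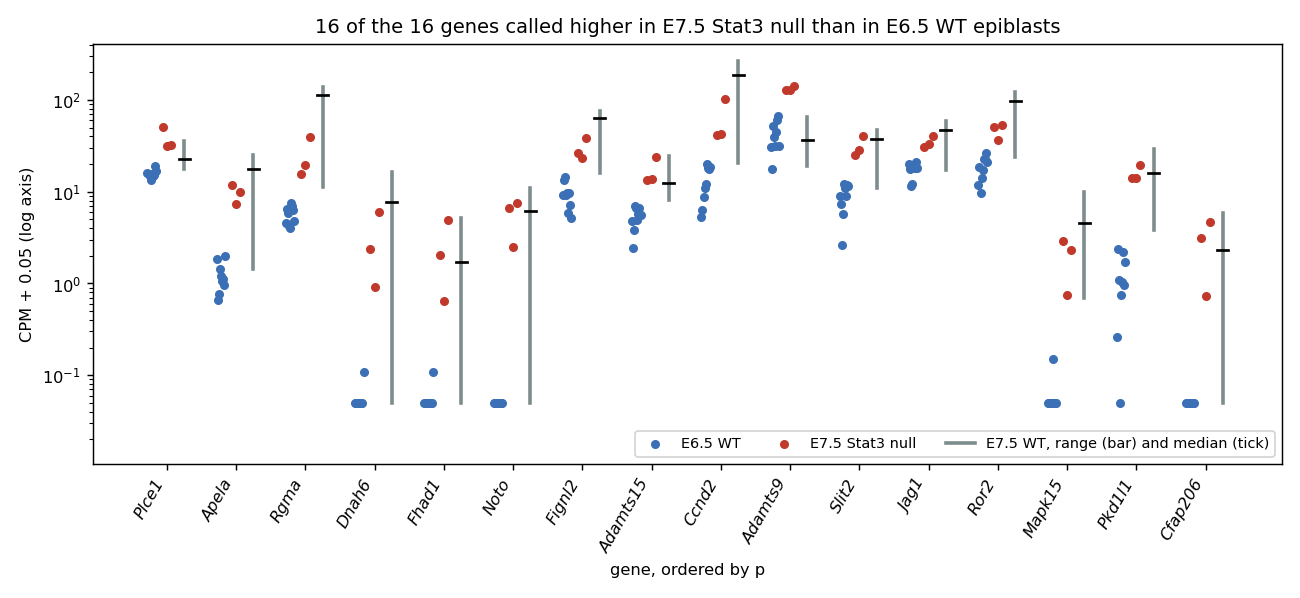
CPM plus 0.05 on a log axis for the 16 genes called higher, with blue points for the 9 E6.5 WT libraries, red points for the 3 E7.5 Stat3 null libraries and a grey bar for the range of the 9 E7.5 WT libraries with its median as a tick. In every gene the red points lie above the blue ones, and in 14 of the 16 genes all 3 red points lie within the grey bar, Adamts9 and Plce1 being the exceptions. In 13 of the 16 genes the lower end of the bar is E7.5 WT 3, a library that stood apart from the rest of its group.

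*Apela*, a peptide ligand of the apelin receptor, stood at 11.7, 7.36 and 9.96 CPM in the null libraries and at 0.609 to 1.97 CPM (median 1.07) in E6.5 WT, with a log2 fold change of 3.04 ± 0.371 (SE, adjusted p = 0.00408). E7.5 WT ranged from 1.39 to 24.8 CPM. The other members of the 3-gene apelin list were not called by edgeR, while DESeq2 and voom each called 2 of the 3 higher: *Aplnr*, the receptor, was at 19.9, 11.9 and 57.1 CPM against 0.104 to 4.72 CPM (adjusted p = 0.0924), and *Apln*, its other ligand, at 51.2, 46.0 and 51.9 CPM against 1.07 to 40.7 CPM (adjusted p = 0.727). For all 3 the null libraries lay above every E6.5 WT library, as they did for 2.44% of all genes tested. Over all 19749 genes tested DESeq2 called 51 higher and voom 237.

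*Rgma*, a membrane-anchored co-receptor of BMP ligands and a ligand of neogenin, was at 15.6, 19.5 and 39.6 CPM against 3.95 to 7.48 CPM (log2 fold change 2.16 ± 0.269, SE, adjusted p = 0.00408). The null libraries lay between the 2 WT stages, since E7.5 WT had a median of 114 CPM. Of the 16 genes listed for BMP signalling *Rgma* was the only call in edgeR. At an unadjusted p under 0.05, 4 were higher, against 3.92% of all genes tested. DESeq2 called 1 and voom 6 higher, and the median of the 16 was 0.48.

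*Jag1*, a ligand of Notch receptors, rose by 1.01 ± 0.186 on the log2 scale (SE, adjusted p = 0.0398). *Ror2*, a receptor of Wnt5a, rose by 1.36 ± 0.249 (SE, adjusted p = 0.0398). *Slit2*, a secreted ligand of Robo receptors, rose by 1.83 ± 0.33 (SE, adjusted p = 0.0389). In E7.5 WT the medians of these 3 genes were 47.3, 96.7 and 37.2 CPM, and the null libraries were at 30.3 to 40.8, 36.7 to 52.8 and 24.8 to 40.5 CPM.

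*Ccnd2*, the D-type cyclin 2 of the G1 phase, stood at 41.7, 42.4 and 102 CPM in the null libraries, 5.24 to 20.2 CPM in E6.5 WT and 20.7 to 265 CPM (median 187) in E7.5 WT. Its log2 fold change over E6.5 WT was 2.25 ± 0.384 (SE, adjusted p = 0.0364). It was the only edgeR call among the 21 proliferation genes listed, whose median was -0.01. *Fignl2*, of the fidgetin family of ATPases, rose by 1.67 ± 0.270 (SE, adjusted p = 0.0232), and *Adamts15*, an extracellular metalloprotease, by 1.70 ± 0.292 (SE, adjusted p = 0.0364).

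*Adamts9* and *Plce1* were the 2 higher calls whose null libraries did not all fall within the E7.5 WT range. *Adamts9*, a metalloprotease that cleaves proteoglycans of the matrix, was at 128, 127 and 140 CPM in the null libraries. It ranged from 17.6 to 66.9 CPM in E6.5 WT and from 18.9 to 65.7 CPM in E7.5 WT, so the null libraries stood above all 18 WT libraries of both stages. Of all genes tested 2.44% lay above every E6.5 WT library, and the share above both stages was not counted. The log2 fold change was 1.67 ± 0.286 (SE, adjusted p = 0.0364) over E6.5 WT, -0.19 (adjusted p = 0.604) for E7.5 WT over E6.5 WT, which called 8.83% of genes, and 1.88 (adjusted p = 0.00877) over E7.5 WT. *Plce1*, phospholipase C epsilon, was at 50.3, 31.3 and 32.5 CPM against 13.5 to 19.2 CPM in E6.5 WT (log2 fold change 1.28 ± 0.155, SE, adjusted p = 0.00408) and 17.8 to 35.8 CPM in E7.5 WT, where only null 1 was above the range.

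Lower calls were led by genes of germ cells and of the Dppa family. *Tuba3a*, an alpha tubulin known from testis, had no count in the 3 null libraries and stood at 3.01 to 12.2 CPM (median 5.69) in the 9 E6.5 WT libraries, at least 84.8-fold lower in the null (adjusted p = 0.000681). E7.5 WT was at 0 to 0.819 CPM with a median of 0. *Dppa5a*, named for its association with pluripotency, was at 0.0997, 0 and 0 CPM against 3.93 to 20.6 CPM (log2 fold change -7.84 ± 1.04, SE, adjusted p = 0.00597), and E7.5 WT was at 0 to 0.670 CPM. *Ddx4*, the RNA helicase Vasa of germ cells, was at 1.05, 2.63 and 2.23 CPM against 6.59 to 30.7 CPM (log2 fold change -2.89 ± 0.522, SE, adjusted p = 0.0389) and 2.08 to 5.499 CPM in E7.5 WT.

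In these 3 genes every null library lay below every E6.5 WT library, at or near the level of E7.5 WT. Transcripts of *Dppa5a* matched those of 5 other genes at up to 97.2% identity, and those of *Tuba3a* matched *Tuba3b* at 96.5%, so the split of their reads is uncertain. Outside the list, *Tdrd12*, a Tudor protein of the piRNA pathway, was at 0.524, 0.215 and 0.384 CPM against 1.70 to 9.24 CPM (adjusted p = 0.0399). *Fmr1nb*, a gene on the X chromosome known from testis, was at 0.324, 0.591 and 0 CPM against 5.34 to 43.6 CPM (adjusted p = 0.0421).

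The list of Dppa family and germline genes held 22 members, of which 18 were tested. Called lower were 3 of them (*Tuba3a*, *Dppa5a* and *Ddx4*) and none was called higher. At an unadjusted p under 0.05, 12 of the 18 were lower and 0 were higher in the edgeR test, against 4.95% of all genes lower. DESeq2 called 11 lower and voom 6, and neither called a member higher. The median log2 fold change was -3.42, also with the 5 members that had at most 3 counts in each null library set at their bound. *Dppa4*, a chromatin factor of pluripotent cells, had no count in any null library against 2.49 to 37.1 CPM in E6.5 WT, at least 170-fold lower with an adjusted p of 0.0514. *Dppa2*, its partner, was at 0 in all 3 null libraries against 0 to 25.03 CPM, at least 75.6-fold lower, and at least 43.8-fold without E6.5 WT 3 (adjusted p = 0.216). *Mov10l1*, a helicase of the piRNA pathway, was at 0.249, 0.913 and 0 CPM against 3.34 to 21.1 CPM (adjusted p = 0.0802).

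The summed level of the list was 8.13 to 13.6 CPM in the null libraries and 11.2 to 21.3 CPM in E7.5 WT. In E6.5 WT 5 to 9, where the visceral endoderm genes were at the null level, it was 46.7 to 64.3 CPM, and in E6.5 WT 1 to 4 it was 100 to 385 CPM. All 9 sums lay above those of the null libraries, and both these and the visceral endoderm sums were higher in WT 1 to 4 than in WT 5 to 9. The part of visceral endoderm RNA in the difference was not tested beyond these values and the following one. Leaving out E6.5 WT 1, 3 and 4, an alternative chosen after seeing the data, gave 133 calls, which held all 16 lower calls and 13 of the 16 higher ones.

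**Figure D3:**
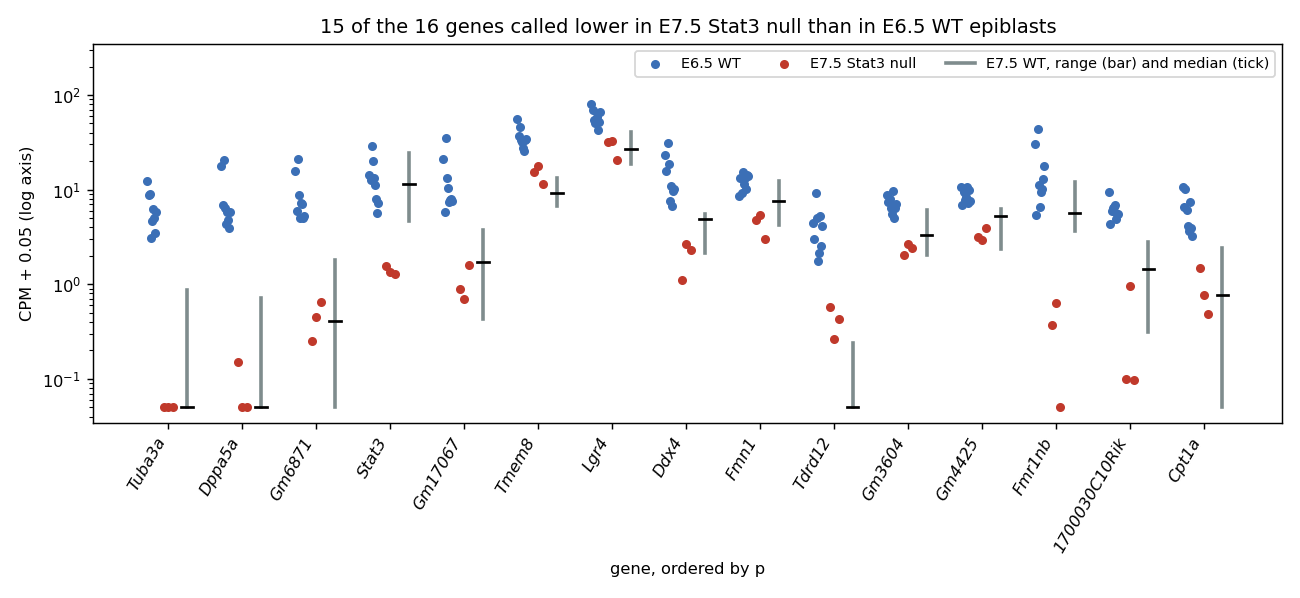
CPM plus 0.05 on a log axis for 15 of the 16 genes called lower, drawn as for the higher genes (blue E6.5 WT, red E7.5 Stat3 null, grey bar and tick for the range and median of E7.5 WT). In every gene drawn the red points lie below the blue ones, and for Stat3 and Fmr1nb they also lie below the grey bar.

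Promoter sequences were read for what the members share. Windows of 300 bases (250 before and 50 after the start of a gene, RefSeq, GRCm38.p6) were found for 19 of the 22 germline genes, 27 of the 32 node and cilia genes, 12 of the 16 higher calls and 11 of the 16 lower calls. CACGTG, an E-box that reads the same on both strands, was in 9 of the 19 germline windows. It was in 4 of the 27 node and cilia windows, 0 of 12 for higher calls and 1 of 11 for lower calls. The share over all genes with a window was 8.09%. GCGGGAA, a sequence of the E2F type searched on both strands, was in 7 of the 19 germline windows. It was in 3 of 12 for higher calls, 2 of 11 for lower calls and 1 of 27 node and cilia windows, against 5.29%. The median number of CG dinucleotides was 18 in the germline windows, 10 in those of the higher calls, 12 in those of the lower calls and of the node and cilia list, and 7 over all windows. GTTGCC, the repeat unit of the X-box read by RFX factors, searched on both strands, was in 8 of the 27 node and cilia windows against 14.1%. None of these 8 genes was called. The unit was in 2 of the 12 higher and 2 of the 11 lower windows. TTCNNNGAA, the palindromic form bound by STAT factors, was in 0 of the 12 higher and 0 of the 11 lower windows against 9.55%, and these letters may lie outside the windows. The 250 bases before the start of *Ddx4* (chr13:112652311-112652560, minus strand), *Tuba3a* (chr6:125286082-125286331, minus strand) and *Mns1* (chr9:72438279-72438528, plus strand) show the motifs, in capitals, in 2 lower calls and in 1 gene of the cilia.
Ddx4: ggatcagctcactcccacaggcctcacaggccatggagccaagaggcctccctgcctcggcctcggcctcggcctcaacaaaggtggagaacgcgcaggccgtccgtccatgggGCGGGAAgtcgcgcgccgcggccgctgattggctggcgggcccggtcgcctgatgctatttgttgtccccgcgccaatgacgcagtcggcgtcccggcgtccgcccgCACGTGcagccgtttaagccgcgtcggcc
Tuba3a: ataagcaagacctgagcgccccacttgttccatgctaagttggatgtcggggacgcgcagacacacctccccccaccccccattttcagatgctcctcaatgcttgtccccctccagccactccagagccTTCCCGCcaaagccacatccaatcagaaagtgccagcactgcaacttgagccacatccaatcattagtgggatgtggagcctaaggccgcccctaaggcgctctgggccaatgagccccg
Mns1: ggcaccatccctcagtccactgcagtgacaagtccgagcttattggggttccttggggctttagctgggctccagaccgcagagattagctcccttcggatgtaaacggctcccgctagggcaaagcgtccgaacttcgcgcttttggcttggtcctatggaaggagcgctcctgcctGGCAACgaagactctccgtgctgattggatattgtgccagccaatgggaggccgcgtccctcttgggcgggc
In *Ddx4* the E-box starts 29 bases and the E2F-type sequence 136 bases before the start site. *Tuba3a* has the E2F-type sequence on the other strand from 120 bases before its start, and *Mns1* has the X-box unit on the other strand from 72 bases before its start. A match of letters is a description and does not show that a factor binds.

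The remaining lower calls described here belong to no single list. *Cpt1a*, the enzyme that admits fatty acids to mitochondria, was at 1.45, 0.725 and 0.432 CPM against 3.16 to 10.7 CPM (log2 fold change -2.81 ± 0.535, SE, adjusted p = 0.0425). *Lgr4*, a receptor of R-spondins, fell by 1.05 ± 0.186 on the log2 scale (SE, adjusted p = 0.0364). *Fmn1*, a formin that assembles actin, fell by 1.48 ± 0.272 (SE, adjusted p = 0.0398). *Tmem8* fell by 1.27 ± 0.223 (SE, adjusted p = 0.0364). A further 5 were *Gm6871*, *Gm17067*, *Gm3604*, the long non-coding *Gm4425* and the pseudogene *1700030C10Rik*, with log2 fold changes between -4.45 and -1.38, and a transcript of *Gm6871* matched one of *Gm17217* at 100%. On chromosome 11, which carries the null allele, the calls were *Stat3* and *Pkd1l1*, and none but *Stat3* itself lay within 20000000 bases of the gene.

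Genes of primed pluripotency, the state of the epiblast before gastrulation, gave 0 calls among 12 tested in edgeR, DESeq2 and voom. At an unadjusted p under 0.05, 4 were lower and 0 higher, against 4.95% and 3.92% of all genes tested. The median log2 fold change was -0.31. *Fgf5*, a growth factor that marks the primed epiblast, stood at 124, 137 and 79.2 CPM in the null libraries and 90.1 to 127 CPM (median 121) in E6.5 WT. E7.5 WT had a median of 6.18 CPM and a range of 2.64 to 158 CPM. The log2 fold change over E6.5 WT was -0.01 ± 0.15 (SE, adjusted p = 0.997). *Utf1*, a chromatin factor of pluripotent cells, was at 208, 216 and 136 CPM against 181 to 304 CPM in E6.5 WT and a median of 14.7 CPM in E7.5 WT.

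*Otx2*, a homeobox factor of the epiblast, was at 161, 165 and 92.0 CPM against 160 to 205 CPM in E6.5 WT and a median of 50.8 CPM in E7.5 WT. *Dnmt3b*, a de novo DNA methyltransferase, was at 4342, 4604 and 3349 CPM against 3372 to 6061 CPM, with an E7.5 WT median of 1443 CPM. In these 4 genes null 3 was the lowest of the null libraries, and null 1 and null 2 were inside the E6.5 WT range, except that null 2 was above it for *Fgf5*. The summed primed list was 4612 to 6247 CPM in the null libraries, 4953 to 8072 CPM in E6.5 WT and 1416 to 6393 CPM in E7.5 WT.

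The highest value in E7.5 WT belongs to E7.5 WT 3, which stood apart from the other 8 of its group: it was also the E7.5 WT library with the lowest value for 13 of the 16 higher calls. In the comparison of E7.5 null with E7.5 WT edgeR called 231 genes, 1105 without E7.5 WT 3, 47 to 155 without any other single E7.5 WT library, and 31, 0 and 20 without null 1, null 2 and null 3. Of the 10 core pluripotency genes none was called by edgeR, 1 was called lower by DESeq2 and 0 by voom. At an unadjusted p under 0.05, 2 of the 10 were higher and 2 lower, against 3.92% and 4.95% of all genes tested. *Pou5f1* was at 729, 706 and 588 CPM against 424 to 686 CPM in E6.5 WT and a median of 309 CPM in E7.5 WT (log2 fold change over E6.5 WT 0.15 ± 0.117, SE, adjusted p = 0.825). *Sox2* was at 107, 92.8 and 54.4 CPM against 38.0 to 59.5 CPM (adjusted p = 0.0961). *Tet1*, which oxidises methylated cytosine, passed the adjusted p (0.0428) with a log2 fold change of -0.62 ± 0.117 (SE).

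**Figure D4:**
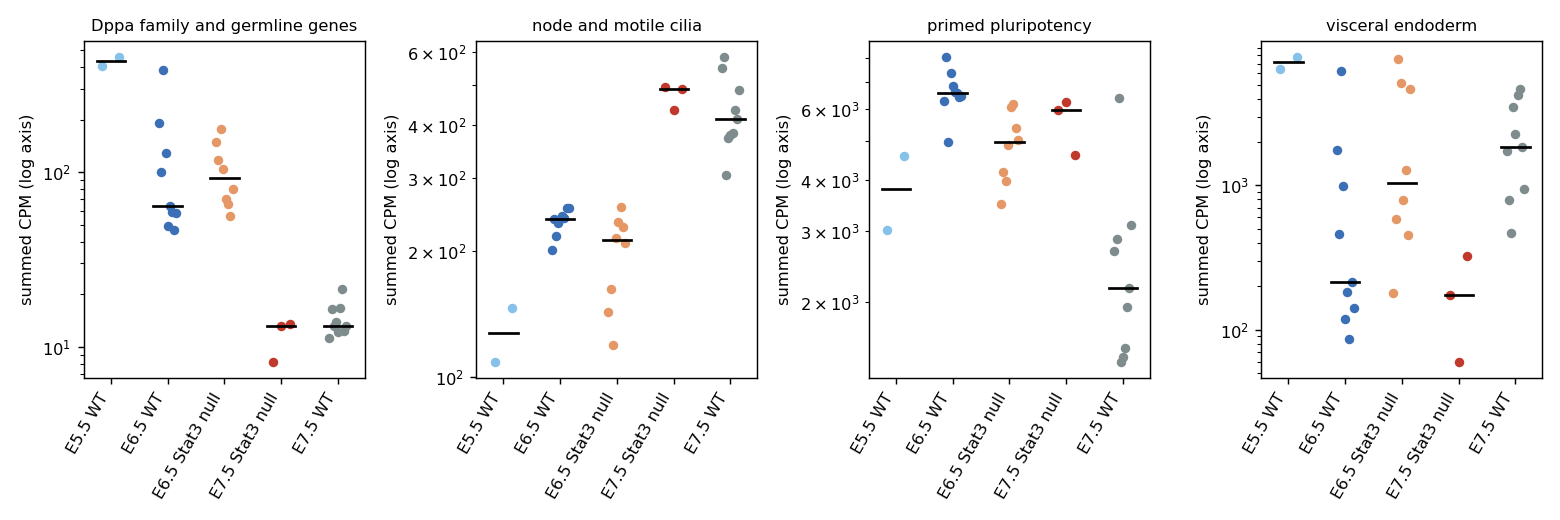
Summed CPM of 4 gene lists (log axis), 1 point per library, for E5.5 WT (n = 2), E6.5 WT (n = 9), E6.5 Stat3 null (n = 8), E7.5 Stat3 null (n = 3) and E7.5 WT (n = 9), with the group median as a black line. The E7.5 null points lie with E7.5 WT for the germline list (8.13 to 13.6 CPM, null 1 being just below the range of E7.5 WT) and the node and cilia list (435 to 494 CPM), and at 4612 to 6247 CPM for the primed list.

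Genes of the primitive streak gave 0 calls among 13 tested in edgeR, 0 at an unadjusted p under 0.05 in either direction, 0 in DESeq2 and 1 in voom. *T* (brachyury), the T-box factor of the streak, was at 51.4, 71.4 and 170 CPM in the null libraries. In E6.5 WT it was at 0 to 3.96 CPM in WT 1 to 4 and at 22.5 to 57.8 CPM in WT 5 to 9, and the log2 fold change was 2.07 ± 1.42 (SE, adjusted p = 0.781). *Eomes*, the T-box factor that acts early in the streak, was at 339, 420 and 394 CPM against 90.4 to 446 CPM in E6.5 WT and 2.75 to 206 CPM in E7.5 WT. The null libraries were thus inside the E6.5 WT range and above every E7.5 WT library for *Eomes*, although its test against E7.5 WT gave an adjusted p of 0.109.

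Mesoderm genes differed among the null libraries, with the highest summed level in null 3. Of 20 listed 17 were tested and edgeR and DESeq2 called 0, while voom called 3 higher. At an unadjusted p under 0.05, 8 were higher and 1 was lower, against 3.92% and 4.95% of all genes tested. The median log2 fold change was 2.36. *Foxc2*, a forkhead factor of paraxial mesoderm, was at 0.324, 0.430 and 16.9 CPM against no count in E6.5 WT and a median of 40.9 CPM in E7.5 WT (adjusted p = 0.0867). *Kdr*, the VEGF receptor 2 of early blood and vessel progenitors, was at 2.59, 11.7 and 38.8 CPM against 0 to 1.52 CPM (adjusted p = 0.155). *Mesp1*, the bHLH factor of nascent mesoderm, was at 11.1, 31.1 and 75.8 CPM against 0 to 25.8 CPM (adjusted p = 0.781). Null 3 was the highest in these 3 genes and in 13 of the 16 higher calls, and null 2 the lowest in 10 of those 16. The summed mesoderm list was 60.2, 106 and 360 CPM in the null libraries against 23.5 to 212 CPM in E6.5 WT. The highest E6.5 WT sum was that of WT 3, and the next was WT 7 at 80.95 CPM, below null 2 and null 3. For 3 of the 17 genes tested all null libraries lay above every E6.5 WT library, against 2.44% of all genes tested.

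Of 12 genes listed for endoderm and axial mesendoderm, 11 were tested and *Noto* was the only call in edgeR. At an unadjusted p under 0.05, 8 were higher and 0 lower, against 3.92% and 4.95% of all genes tested. DESeq2 called 4 and voom 10 higher, and 75.2% of the voom calls over all genes were higher. The median log2 fold change was 2.36, and the summed level was 321 to 496 CPM in the null libraries, 55.0 to 169 CPM in E6.5 WT and 226 to 388 CPM in E7.5 WT. *Chrd*, the BMP antagonist made by the node, was at 39.8, 27.6 and 43.1 CPM against 0 to 6.42 CPM in E6.5 WT and 7.67 to 26.0 CPM in E7.5 WT (adjusted p = 0.0731 over E6.5 WT), so the null libraries were above all WT libraries of both stages. The share of all genes above both stages was not counted. *Foxa2*, a forkhead factor of endoderm and axial tissue, was at 65.7, 47.8 and 37.5 CPM against 4.34 to 42.8 CPM in E6.5 WT (adjusted p = 0.407). *Shh*, the hedgehog ligand of the notochord, had no count in the null libraries nor in E6.5 WT and was at 0 to 15.1 CPM (median 8.96) in E7.5 WT, where the null was lower (adjusted p = 0.0433). *Sox17*, a factor of definitive endoderm, was at 8.93, 4.995 and 5.64 CPM against 0.0149 to 4.50 CPM in E6.5 WT (adjusted p = 0.438) and 7.31 to 37.0 CPM in E7.5 WT (log2 fold change -1.88, adjusted p = 0.0324).

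**Figure D5:**
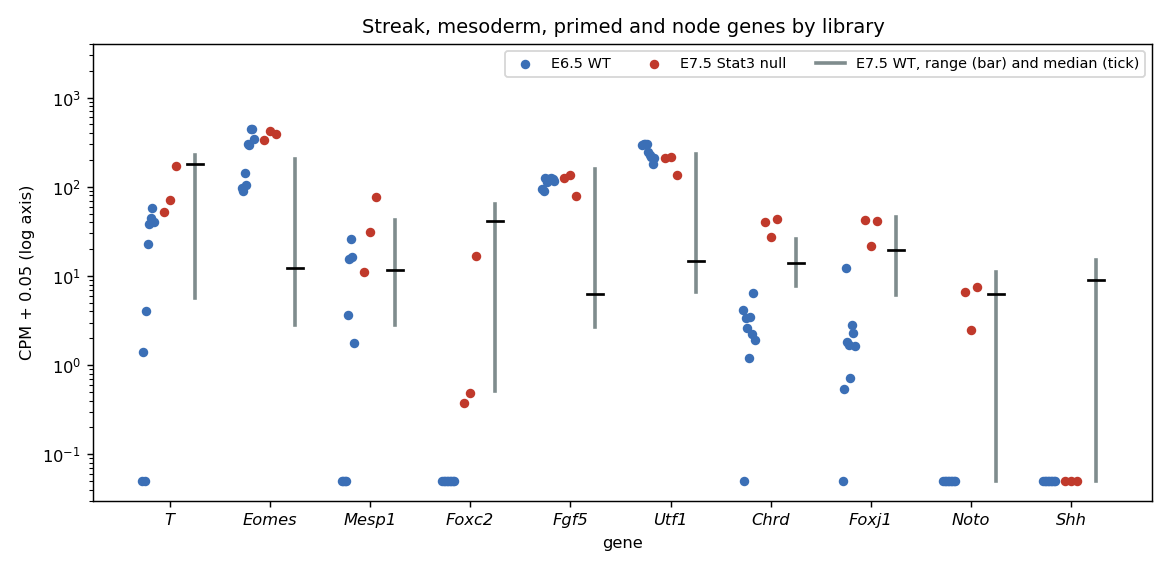
CPM plus 0.05 on a log axis for 10 genes of the streak, mesoderm, primed epiblast and node, with blue points for E6.5 WT, red for E7.5 Stat3 null and a grey bar and tick for the range and median of E7.5 WT. The null points lie within or near the blue points for Eomes, Fgf5 and Utf1, above them for Chrd, Foxj1 and Noto, apart from one another for Foxc2, and at 0 with them for Shh.

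Among other lists, 0 of 11 naive pluripotency genes were called by edgeR, 1 was called lower by DESeq2 and 0 by voom. At an unadjusted p under 0.05, 0 were higher and 1 was lower, against 3.92% and 4.95% of all genes tested. The median of the 11 was -0.62 and turned positive in 4 alternatives. Of 15 neuroectoderm genes edgeR and DESeq2 called 0 and voom 1. At an unadjusted p under 0.05, 3 were higher, against 3.92% of all genes tested, and the median of the 15 was 1.04. Among 19 tested genes of the STAT3 pathway *Stat3* was the only edgeR call, and the median was -0.05. *Vim*, vimentin of mesenchymal cells, passed the adjusted p (0.0314) with a log2 fold change of 0.87 ± 0.145 (SE), at 50.3, 40.3 and 54.0 CPM against 21.5 to 37.3 CPM in E6.5 WT and a median of 153 CPM in E7.5 WT. It was not called, and edgeR called 0 of the 12 genes tested from the list for epithelial to mesenchymal transition. At an unadjusted p under 0.05, 4 of the 12 were higher and 2 lower, against 3.92% and 4.95% of all genes tested. DESeq2 and voom each called 1 higher, and the median log2 fold change of the 12 was 0.98.

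To ask what lay outside both WT stages, each gene was tested in the null against E6.5 WT and against E7.5 WT in 1 fit, and the larger p was kept where both differences had the same sign. Of 21351 genes *Stat3* was the only edgeR call (0.00468%). There were 301 at an unadjusted p under 0.05, and DESeq2 called 20, with *Stat3* and *Adamts9* among them, and voom 5, with *Adamts9* but not *Stat3* among them. Leaving out any 1 null library gave 0 calls, and leaving out E7.5 WT 3 or E6.5 WT 8 gave *Stat3* and *Adamts9*. *Adamts9* came next in this test (adjusted p = 0.126), then *Fmr1nb* (adjusted p = 0.272), whose null libraries at 0 to 0.591 CPM were below E6.5 WT and below E7.5 WT at 3.57 to 12.04 CPM. *Triml2*, a Trim family gene named here after its values were seen, had no count in the null libraries against 0.488 to 23.2 CPM in E6.5 WT and 0.927 to 14.8 CPM in E7.5 WT (adjusted p = 0.272). Of the 16 higher calls 11 had a null mean between the 2 WT means, and of the 16 lower calls 4. All 3 null libraries lay within the E7.5 WT range for 14 of the higher and 9 of the lower calls. That range was widened by E7.5 WT 3, which stood apart from its group. It was the E7.5 WT library nearest to E6.5 WT in 13 of the 16 higher and 4 of the 16 lower calls. Lying within the range thus does not mean that the level of E7.5 WT was reached, and the share of all genes within it was not counted. E7.5 WT against E6.5 WT, which shares the E6.5 WT libraries, called 8.83% of genes. It called higher 10 of the 12 higher calls tested there, and it called lower 12 of the 16 lower calls.

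The same lag of 1 day was read from other embryos as E6.5 null against E5.5 WT, which shares no library with the comparison above and called 33 of 20326 genes (0.162%). Of the 16 higher calls 13 were tested there, 0 were called by edgeR (which called 0.064% of genes higher) and 2 by DESeq2, and 11 had a positive log2 fold change, against 51.2% of all genes. Of the 16 lower calls all were tested, 15 had a negative log2 fold change, against 48.8% of all genes, and *Stat3* (-3.37, adjusted p = 0.0265) and *Dppa5a* (-3.50, adjusted p = 0.00418) were called, where 0.0984% of genes were called lower. This comparison rests on 2 WT libraries. A test of the difference between the lags called 29 of 22580 genes (0.128%), 2 without null 3, 1 without E5.5 WT 1 and 155 without E6.5 null 1. *Tuba3a* was among them (adjusted p = 0.0138), with a log2 fold change of -1.81 (adjusted p = 0.360) in the earlier lag, as was *Fhad1* (adjusted p = 0.0345), which was too low to be tested in the earlier lag alone.

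In cultured epiblast stem cells, of which 2 null lines were compared with 2 WT lines, 22 of 20736 genes were called (0.106%). Of the higher calls 15 were tested, 4 had a positive log2 fold change (48.1% of all genes) and 1 was called, *Apela*, in the other direction at -1.73 (adjusted p = 0.0171). Of all genes 0.0434% were called higher and 0.0627% lower. Of the lower calls 12 were tested, 7 had a negative log2 fold change (51.9% of all genes), and *Stat3* was the only call (-2.62, adjusted p = 0.00707).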

How the data were processed

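Per the labels and the methods of the study, the authors trimmed reads with Trim Galore, aligned them to GRCm38 with HISAT2 v2.2.1 and counted them per gene with StringTie v2.1.4, and they deposited whole-number counts without normalisation. Epiblast libraries were prepared with a stranded total RNA kit for low input, and those of the stem cell lines with another kit after removal of ribosomal RNA. The annotation version and strand setting of the counting are not given in the sources used here, so reads of overlapping and antisense genes cannot be told apart. Of 47643 genes listed, 47224 were matched to GENCODE M21 for positions and types.

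The test of the 2 groups' counts was that of edgeR 4.0.16 (R 4.3.3, TMM scaling, filterByExpr with minimum count 10 and minimum total 15, robust quasi-likelihood dispersions, two-sided test, Benjamini-Hochberg adjustment over all genes tested). Only the thresholds of a call were those of the study. The study itself used DESeq2, which was an alternative here and called 227 genes where edgeR called 32. SE is the absolute log2 fold change divided by the square root of F. CPM used TMM library sizes over 35 epiblast libraries. Bounds take 3 counts per library as the limit that a count of 0 allows (a mean over libraries of 0.0758 CPM in the null and 0.0779 CPM in E6.5 WT), and cover counting error only. Copies were sought with blastn 2.17.0 (at least 95% identity over 50% of a transcript and 200 bases), and the scripts were tested on simulated counts. Alternatives included DESeq2 1.42.0, limma 3.58.1 voom, other filters and scaling, covariates, the replicate block and each library left out. Figures were drawn with matplotlib 3.10.9. Genes named are *Stat3*, the calls and members of the lists, and 1 lower call is not reported here. The members and lists were chosen with earlier results of these data known, and the node and cilia list and 2 alternatives (a visceral endoderm covariate, and leaving out E6.5 WT 1, 3 and 4) after the values were seen. Each epiblast library is 1 embryo, so replicates are biological, while the stem cell libraries are of cultured lines.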

Additional observations from a re-analysis of the deposited data

Results flagged for a closer look

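In 4 of the called genes the gap of 1 E6.5 WT library to the other 8 passed Dixon's test, which chance does in about 1 in 20 groups, over 37 groups tested. These were *Dnah6* and *Fhad1* in E6.5 WT 9 (0.0596 CPM in both, where the others had no count), *Mapk15* in E6.5 WT 6 (0.101 CPM) and *Slit2* in E6.5 WT 3 (2.56 CPM, the lowest). The values of *Dnah6*, *Fhad1* and *Mapk15* are of 3 counts or fewer and cannot be told from 0. For *Dnah6* and *Fhad1* the other 8 libraries were at 0, so any count would pass and the rate of 1 in 20 does not apply. For 2 called genes the effect differed between the lags of E7.5 null behind E6.5 WT and of E6.5 null behind E5.5 WT, by an interaction test: *Fhad1* by 11.5 and *Tuba3a* by -9.20 on the fitted log2 scale, sizes that depend on the prior count of the fit because 1 or more groups held no counts.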

How the results depend on the processing

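All 32 called genes kept their sign in every alternative that tested them, and *Tuba3a* alone was called in all 26. Against 32 calls, DESeq2 gave 227 (22.5% higher), voom 315 (75.2% higher), the Y chromosome list as a covariate 21, the extraembryonic ectoderm list 83, only E6.5 WT under 40000000 counts 184, the visceral endoderm list 78, and leaving out E6.5 WT 1, 3 and 4 gave 133. RLE scaling, no filter, a minimum mean count of 50, removal of genes above 1% of counts and non-robust dispersions gave 28 to 36, and 1 fit of all 35 libraries gave 22 with 14 of the 32. Leaving out 1 library gave 4 to 88 calls: 20 without E6.5 WT 2, 19 without WT 4 or WT 7, 11 without WT 5, 12 without WT 6 and 10 without WT 9, beside those named with the first count. The following counts of called list members leave out the node and cilia list. Calls among list members (8) became 29 with DESeq2, 43 with voom, 25 with the extraembryonic ectoderm list, 29 with only E6.5 WT under 40000000 counts, 22 with the visceral endoderm list and 30 without E6.5 WT 1, 3 and 4, and 2 to 19 with 1 library left out. The *Stat3* difference ranged from -3.24 to -2.95 with 1 library left out and was -2.46 on the log2(CPM + 1) scale. Outside both WT stages (1 call) DESeq2 gave 20, voom 5, all 35 libraries 2 and single libraries left out 0 to 2. The difference between the lags (29) gave 294 with DESeq2, 773 with voom and 1 to 155 with 1 library left out.

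In the neighbouring comparisons, E7.5 WT against E6.5 WT (1518 calls) gave 2805 with no filter and 1363 to 1902 with 1 library left out. E7.5 null against E7.5 WT (231) gave 990 with DESeq2 and 0 to 1105. E6.5 null against E6.5 WT gave 0 with edgeR (1414 genes at an unadjusted p under 0.05), 28 with DESeq2 and 0 to 2. E6.5 null against E5.5 WT (33) gave 460 with DESeq2 and 4 to 173, and the stem cell lines (22) gave 205 with DESeq2, 75 with no filter and 26 to 159. The cause of these shifts was not tested.

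The replicate numbers of the 2 groups do not pair the embryos (correlations of deviations 0.00936, -0.0236 and 0.0786 for the 3 shared numbers). With the replicate number as a block, 81 genes were called, 9 of them among the 32. Of list members, with the node and cilia list again left out, 30 were called. Called outside both WT stages were 0 genes, and 94 were called for the difference between the lags.

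Levels at or under 3 counts (0.0446 to 0.104 CPM in these 12 libraries) cannot be told from 0 in a single library.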
